A study of Mus musculus with 4 samples.

Results

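The BAF complex, the mammalian SWI/SNF chromatin remodeler, was examined at the level of its mRNAs in primary mouse neural stem/progenitor cells (NSCs) that carry or lack Chd5, itself a chromatin remodeler of the CHD family. The subunit genes followed were 10 of the 18169 rows of the deposited table, found by gene name: Smarca4, Smarca2, Smarcc1, Smarcc2, Smarcb1, Smarcd1, Smarcd3, Smarce1, Arid1a and Actl6a. The list was chosen with earlier results of these data known. Each name occurs in 1 row. The question was which subunits differ between genotypes, and whether alternative subunits keep the same proportions.

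RNA was sequenced from 2 +/+ and 2 Chd5-/- cultures of C57BL/6 mice, each grown from the periventricular region of the brain of 1 newborn and kept proliferating with EGF and FGF2. Every sample was a bulk culture for which no sort is described, and how the Chd5 allele was made is not given in the sources used here. The growth protocol gives postnatal day 1 for all cultures, whereas the age entries read postnatal day 1 and 2 for +/+ replicates 1 and 2 and day 3 and 4 for the corresponding Chd5-/- replicates. By those entries, age and genotype cannot be told apart.

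BAF uses the energy of ATP to move or evict nucleosomes. In its canonical form the complex holds 1 ATPase, either BRG1 (Smarca4) or BRM (Smarca2). This form has a core of SMARCC, SMARCB1, SMARCD and SMARCE1 proteins, with an ARID protein and an actin-related protein. Several positions can be filled by alternative paralogs, and the developing nervous system is the best known place where they are exchanged: neural progenitors carry a progenitor form with ACTL6A, PHF10, DPF2 and SS18, and neurons leaving the cell cycle replace these by ACTL6B, DPF1 or DPF3, and SS18L1. Smarca4 and Smarcc2 are among the subunits with known roles in neural progenitors.

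The values are TPM, a transcript abundance corrected for transcript length that adds to the same total in every sample, so levels can be compared between genes and a shift in abundant RNAs moves all other genes. TPM does not give the number of reads, so the depth behind a value is unknown. The targeted gene Chd5 measured 0.39 and 0.37 TPM in +/+ NSCs but 0.06 and 0.04 TPM in Chd5-/- NSCs, in the direction of the labels at a level below that tested. Stem and progenitor markers were present in every sample: Sox2 ranged from 200.69 to 441.66 TPM, Nes from 60.88 to 94.66 TPM and Fabp7 from 1938.77 to 5891.59 TPM. The summed level of 8 neuronal markers was between 373 and 798 TPM, nearly all of it Map2, and Rbfox3 was at 0.07 TPM or listed at 0. Among these 8 markers, 4 were higher in Chd5-/- NSCs without overlap (Tubb3, Stmn2, Snap25 and Syt1) and 0 were lower. None of the 4 exceeded 7.62 TPM in any sample, and only Syt1 of them reached the mean of 1 TPM required for testing. Of the 3 neuronal markers tested, 1 was higher without overlap, beside 46.3% of all rows tested. The 7 mesenchymal markers added to 21.8 TPM in Chd5-/- replicate 1 and to 0.37 TPM or less in the other 3 samples. The 8 genes of cycling cells added to 810 and 553 TPM in +/+ NSCs compared with 709 and 821 TPM in Chd5-/- NSCs. The 10 stem and progenitor markers together added to 9908 and 8258 TPM in +/+ NSCs compared with 4026 and 6958 TPM in Chd5-/- NSCs. Without overlap, 4 of the 10 were lower and 1 higher, beside 13.0% and 46.3% of all rows tested. Of these 10, Prom1 was at 0.99 and 4.15 TPM in +/+ and at 45.27 and 3.20 TPM in Chd5-/- NSCs. The 6 astrocyte markers added to 204 TPM in Chd5-/- replicate 1 and to 698 to 996 TPM in the other 3 samples. Markers of microglia and of endothelial cells added to at most 0.70 TPM in any sample. The part of these marker differences in the results that follow was not tested.

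In GENCODE M21 on GRCm38 the ATPase genes are Smarca4 at chr9:21616169-21704230 (plus) and Smarca2 at chr19:26605050-26778322 (plus). The core genes are Smarcc1 at chr9:110117708-110240178 (plus), Smarcc2 at chr10:128459248-128490482 (plus), Smarcb1 at chr10:75896769-75921617 (minus), Smarcd1 at chr15:99702129-99713991 (plus), Smarcd3 at chr5:24590818-24624411 (minus) and Smarce1 at chr11:99209047-99231017 (minus). The remaining subunit genes are Arid1a at chr4:133679008-133756769 (minus) and Actl6a at chr3:32706298-32726973 (plus), each position being that of the whole gene with the strand in parentheses.

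All 10 BAF subunit genes were expressed well above the minimum of 1 TPM, so none was lost to the filter on low values. In +/+ NSCs the mean level ran from 98.1 TPM for Smarca2 to 10.5 TPM for Smarcd3, above 87.6% and 42.4% of the tested rows. In descending order the means were 98.1 TPM for Smarca2, 72.0 for Smarcc1, 51.2 for Smarce1, 34.7 for Smarcc2, 33.3 for Smarcb1, 25.0 for Actl6a, 20.4 for Smarca4, 18.8 for Arid1a, 18.7 for Smarcd1 and 10.5 for Smarcd3. The samples of the first 3 genes did not overlap with those of the gene next in order, nor did those of Smarcd1 and Smarcd3. Those of each neighbouring pair from Smarcc2 to Smarcd1 did. Within each +/+ sample, however, Smarcb1 was above Actl6a, Actl6a above Smarca4 and Smarca4 above Arid1a, so that among these neighbours only Smarcc2 and Smarcb1, and Arid1a and Smarcd1, changed their order between the samples.

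**Figure D1:**
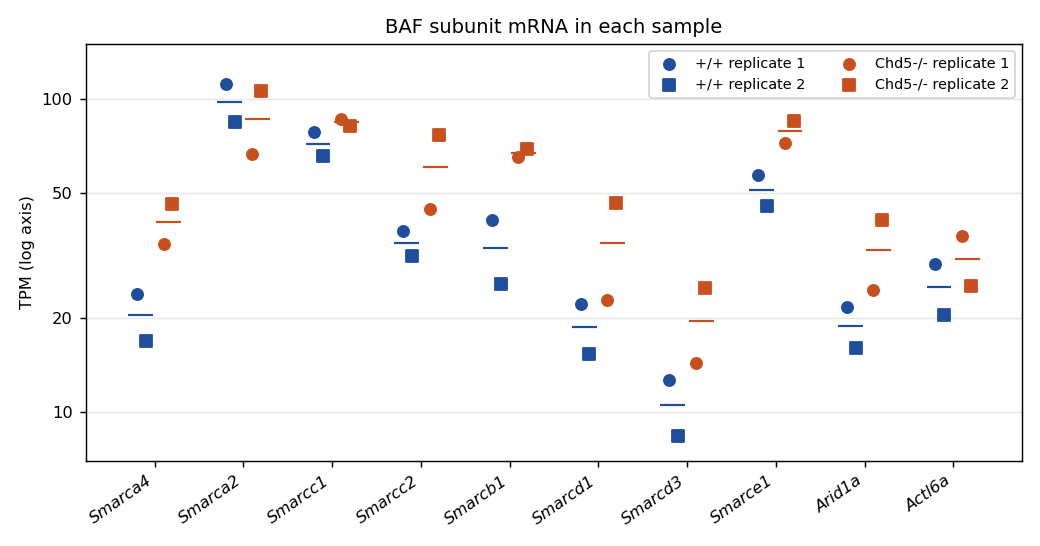
TPM (log axis) of the 10 BAF subunit genes in the 4 samples, blue for +/+ and orange for Chd5-/-, circles for replicate 1 and squares for replicate 2; short lines are group means. Both orange points lie above both blue points for every gene but Smarca2 and Actl6a, and the blue circle lies above the blue square for all 10.

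Of the 10 genes, 9 had a higher mean in Chd5-/- NSCs, and for 8 of them both Chd5-/- samples lay above both +/+ samples. No gene lay the other way in the TPM as deposited. Of all 12576 rows tested, 46.3% were non-overlapping and higher in Chd5-/- cells and 13.0% non-overlapping and lower, so a large part of the table showed the same pattern. Differences between genotypes were tested with limma on log2(TPM + 1). At an unadjusted p-value under 0.05, 3 of the 10 genes were higher (Smarca4, Smarcb1 and Smarce1) and 0 lower, against 21.9% and 2.27% of all rows. With Benjamini-Hochberg adjustment over all rows none of the 10 passed 0.05, as against 7 rows or 0.0557% of the table, and the smallest adjusted p-value was 0.143. The median log2 fold change of the 10 genes was 0.75, with a range from -0.20 to 1.03, and that of all rows was 0.34. In bulk samples, a change in the share of cells and a change of RNA per cell cannot be told apart.

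The ATPase genes did not show the same pattern. Smarca4, which encodes BRG1, was at 23.86 and 16.87 TPM in +/+ NSCs compared with 34.54 and 46.20 TPM in Chd5-/- NSCs. The groups did not overlap, and the mean was 1.98 times as high in Chd5-/- NSCs, with a log2 fold change of 0.96 (standard error 0.29, limma adjusted p = 0.154). Smarca2, which encodes the alternative ATPase BRM, was at 111.60 and 84.50 TPM in +/+ and at 66.79 and 106.14 TPM in Chd5-/- NSCs. Here the groups overlapped: Chd5-/- replicate 1 was the lowest of the 4 samples and replicate 2 lay within the +/+ range, giving a log2 fold change of -0.20 (standard error 0.31, limma adjusted p = 0.713). Smarca4 made up 17.6% and 16.6% of the summed TPM of the 2 ATPase genes in +/+ NSCs, compared with 34.1% and 30.3% in Chd5-/- NSCs.

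Such a share is taken within a sample and does not depend on how samples are scaled to each other. On the log2 scale the ratio of Smarca4 to Smarca2 was -2.18 and -2.26 in +/+ and -0.93 and -1.18 in Chd5-/- NSCs. The difference between genotypes was 1.16, against standard deviations of 0.056 and 0.18 between samples of a genotype. An exact two-sided permutation test gave p = 0.33, the smallest value that this test can give with 2 samples against 2, so it cannot reach 0.05 for any ratio. In +/+ NSCs Smarca2 mRNA was the more abundant of the ATPase mRNAs, and it was so in Chd5-/- NSCs as well.

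The sequences upstream of this gene pair and of Smarcb1, the subunit gene with the largest log2 fold change, are shown because expression of these 3 genes separates the pattern: 2 were higher in both Chd5-/- samples and Smarca2 was not. Each is the 100 bases before the outermost GENCODE start, on the strand of the gene, from RefSeq's GRCm38.p6 promoter table, with CpG dinucleotides in capitals. They lie at chr9:21616069-21616168 (plus strand) for Smarca4, chr19:26604950-26605049 (plus strand) for Smarca2 and chr10:75921618-75921717 (minus strand) for Smarcb1.
Smarca4: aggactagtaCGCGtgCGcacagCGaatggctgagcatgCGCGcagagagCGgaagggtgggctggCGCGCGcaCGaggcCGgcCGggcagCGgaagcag
Smarca2: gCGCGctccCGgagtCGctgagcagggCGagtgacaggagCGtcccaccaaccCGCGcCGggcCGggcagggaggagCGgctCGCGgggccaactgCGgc
Smarcb1: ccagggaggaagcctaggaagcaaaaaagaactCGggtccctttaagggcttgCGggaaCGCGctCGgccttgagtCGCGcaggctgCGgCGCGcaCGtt

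Smarca4 and Smarca2 each have 14 CpG dinucleotides in these 100 bases and Smarcb1 has 11, so CpG number did not separate the genes by their expression pattern. RefSeq promoter windows of 300 bases (250 before and 50 after the start) were found for 9 of the 10 genes. They held 21 to 48 CpG dinucleotides, where the median of all 32851 windows was 7. The GC box GGGCGG, searched on both strands, was present in windows of all 9 genes and in 35.7% of all windows. The core of ETS sites, CCGGAAG, was present for 2 of the 9 (Smarca2 and Smarcc1) and in 8.86% of all windows, whereas CCAAT was present for 0 of the 9 and in 37.4% of all windows. These are matches of letters and not sites of binding.

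The SMARCC proteins form the scaffold on which the complex assembles. Smarcc1 (BAF155) was at 78.32 and 65.60 TPM in +/+ and at 86.65 and 82.04 TPM in Chd5-/- NSCs, a narrow gap with a log2 fold change of 0.23 (standard error 0.22, limma adjusted p = 0.545). Smarcc2 (BAF170) was at 37.93 and 31.47 TPM in +/+ and at 44.71 and 77.02 TPM in Chd5-/- NSCs, with a log2 fold change of 0.75 (standard error 0.33, limma adjusted p = 0.241). The value depended on the Chd5-/- sample: without Chd5-/- replicate 2 the log2 fold change was 0.36, and without Chd5-/- replicate 1 it was 1.13. The share of Smarcc1 in the summed TPM of this pair was 67.4% and 67.6% in the +/+ samples, 66.0% in Chd5-/- replicate 1 and 51.6% in Chd5-/- replicate 2. The share of Smarcc1 was thus well below the +/+ values in 1 of the 2 Chd5-/- cultures.

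Smarcb1 (SNF5), a core subunit that contacts the nucleosome and is a tumor suppressor, had the largest log2 fold change of the 10. It was at 41.03 and 25.61 TPM in +/+ and at 65.26 and 69.16 TPM in Chd5-/- NSCs. The groups were well separated and the Chd5-/- samples lay close together, with a mean 2.02 times as high and a log2 fold change of 1.03 (standard error 0.29, limma adjusted p = 0.143). Smarce1 (BAF57), a DNA-binding HMG-box subunit, was at 57.06 and 45.42 TPM in +/+ and at 72.65 and 85.02 TPM in Chd5-/- NSCs. It was likewise higher in both Chd5-/- samples, with a log2 fold change of 0.62 (standard error 0.24, limma adjusted p = 0.202).

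The SMARCD (BAF60) proteins link the complex to transcription factors. Smarcd1 was at 22.12 and 15.30 TPM in +/+ and at 22.81 and 46.46 TPM in Chd5-/- NSCs. Chd5-/- replicate 1 was barely above +/+ replicate 1, and the Chd5-/- samples differed from each other by more than the genotypes did, with a log2 fold change of 0.79 (standard error 0.41, limma adjusted p = 0.301). Smarcd3, the family member known from heart and muscle and from neural tissue, was at 12.68 and 8.41 TPM in +/+ and at 14.31 and 24.92 TPM in Chd5-/- NSCs. Its pattern over the samples was that of Smarcd1, with a log2 fold change of 0.81 (standard error 0.38, limma adjusted p = 0.258). The log2 ratio of Smarcd1 to Smarcd3 was 0.76 and 0.79 in +/+ and 0.64 and 0.87 in Chd5-/- NSCs, so the genotypes overlapped. With GC and length trends removed the difference was 0.11 and they did not. Smarcd3 shares 2466 of its 5120 annotated exonic bases with Chpf2 on the opposite strand. The libraries were stranded, but whether counting used the strand is not given in the sources used here, so its value is uncertain. Chpf2 was at 2.2 and 2.48 TPM in +/+ and at 7.23 and 4.70 TPM in Chd5-/- NSCs. Smarcd1, Smarcc1, Actl6a and Smarca2 share 40 to 452 exonic bases with genes on the opposite strand, and Smarce1 has an annotated pseudogene copy, Smarce1-ps1. On the same strand, Smarca4 shares 99 of its 6475 annotated exonic bases with Gm27373.

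Arid1a (BAF250a), the DNA-binding subunit that defines the canonical BAF form and is often mutated in cancer, was at 21.65 and 15.97 TPM in +/+ and at 24.58 and 41.14 TPM in Chd5-/- NSCs. The groups did not overlap, but only by a small margin in Chd5-/- replicate 1, with a log2 fold change of 0.74 (standard error 0.34, limma adjusted p = 0.254). Actl6a (BAF53a), the actin-related subunit of progenitor complexes, was at 29.73 and 20.36 TPM in +/+ and at 36.61 and 25.28 TPM in Chd5-/- NSCs. It overlapped between genotypes, with a log2 fold change of 0.30 (standard error 0.32, limma adjusted p = 0.590), and was with Smarcc1 the only gene of the 10 that was lower in Chd5-/- replicate 2 than in replicate 1.

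**Figure D2:**
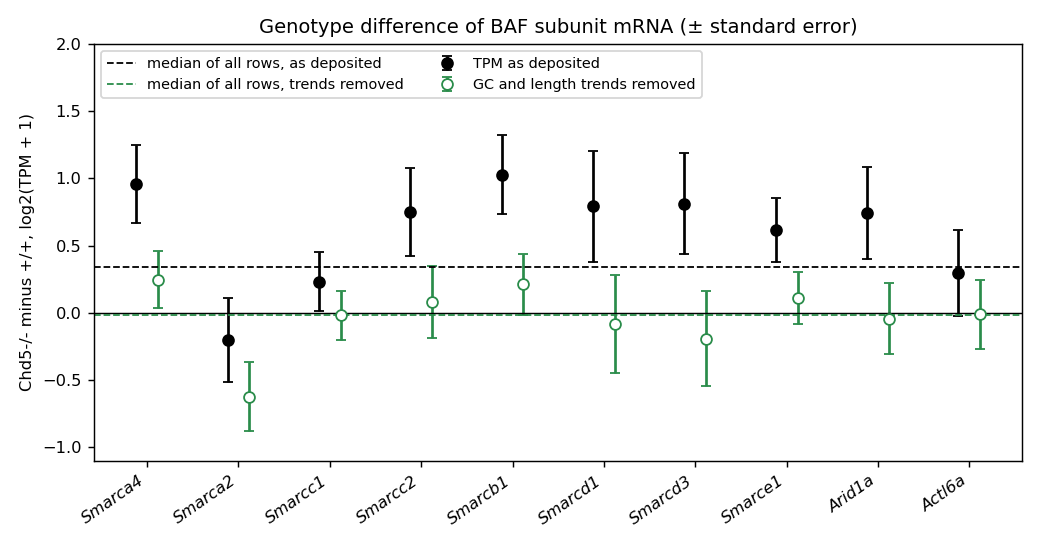
Difference between Chd5-/- and +/+ NSCs in log2(TPM + 1) for the 10 BAF subunit genes, as deposited (black) and with the trends with GC content and transcript length removed from each sample (green, open); bars are standard errors from limma and dashed lines the medians of all rows. As deposited, Smarcb1 is highest at 1.03 and Smarca2 lowest at -0.20; with trends removed the 10 values lie between -0.62 and 0.25.

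Replicates of a genotype differed in a shared direction across these genes. +/+ replicate 1 was above +/+ replicate 2 for all 10, as it was for 65.9% of all rows, and the median difference of the 10 genes was 0.45 in log2(TPM + 1) where that of all rows was 0.14. Chd5-/- replicate 2 was above replicate 1 for 8 of the 10, against 50.1% of all rows, with a median difference of 0.53 where that of all rows was 0.0021. The median level of the 10 genes on this scale was 5.11 and 4.58 in +/+ NSCs compared with 5.37 and 5.85 in Chd5-/- NSCs. The step between genotypes is therefore of the order of the step between samples of a genotype. Without Chd5-/- replicate 1 the median log2 fold change of the 10 genes was 1.09 and 7 of them were higher at an unadjusted p-value under 0.05, as were 27.8% of all rows in that fit. Without Chd5-/- replicate 2 the median was 0.41 and 1 gene was higher (25.9% of all rows), and without +/+ replicate 2 the median was 0.54 and 0 genes were (5.75% of all rows). The lone remaining sample of a genotype is assumed in these fits to vary like the others.

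The differences followed the base composition of the transcripts. GC content and length were taken for 1 transcript per gene from GENCODE M21, the longest coding one where there is one. The GC content of the 10 transcripts ran from 48.4% for Smarcc1 to 59.1% for Smarcd3, with a median of 54.7% where that of all rows was 49.6%. Across the 10 genes, which share the 4 libraries, Spearman's rho of the log2 fold change with GC content was 0.73, and across the 12103 rows with a GC value it was 0.62. Differences between samples of a genotype also went with GC content across the 10 genes. Their rho was 0.72 for Chd5-/- replicate 2 minus replicate 1 and 0.53 for +/+ replicate 1 minus replicate 2. Rows within 1 percentage point of the GC content of a subunit gene serve as its surroundings. Their median log2 fold change was 0.98 around Smarcd1, 0.96 around Arid1a and 1.02 around Smarcd3, above the 0.79, 0.74 and 0.81 of these genes. It was 0.89 around Smarca4, 0.81 around Smarcb1, 0.69 around Smarcc2 and 0.49 around Smarce1, each below the value of that gene. Around Smarcc1 and Actl6a it was 0.23 and 0.29, and around Smarca2 it was 0.43, against -0.20 for Smarca2 itself.

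**Figure D3:**
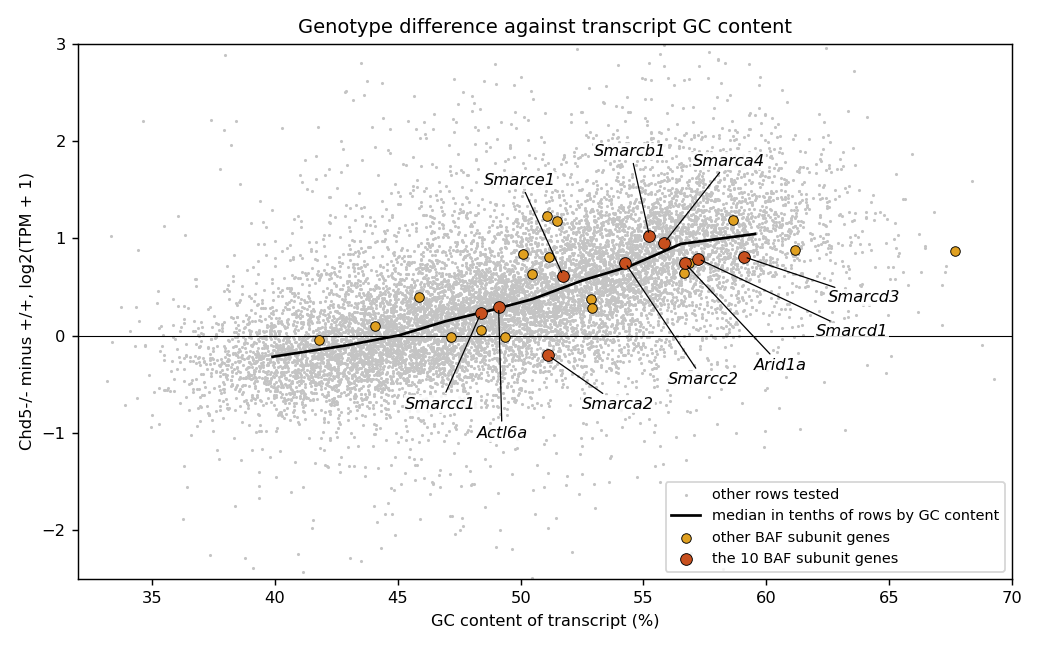
Difference between Chd5-/- and +/+ NSCs in log2(TPM + 1) against the GC content of the transcript (%), for all rows with a GC value (grey), the 10 BAF subunit genes (orange) and other BAF subunit genes (yellow); the black line joins medians of 10 equal bins of rows by GC content, and 41 rows lie outside the axes. The 10 genes lie along the line, except Smarca2 at -0.20, which lies below it.

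When the trends of each sample with GC content and length were removed, the median log2 fold change of the 10 genes was -0.016 and that of all rows -0.015. For 0 of the 10 genes were Chd5-/- NSCs then higher without overlap (21.3% of all rows were), and none had an unadjusted p-value under 0.05 (4.95% of rows were higher by this measure and 5.66% lower). Smarca2 was the only gene of the 10 whose groups did not overlap. It was lower in both Chd5-/- samples, where 24.7% of all rows were, with a log2 fold change of -0.62 (standard error 0.26, limma adjusted p = 0.485). Smarca4 was at 0.25 (standard error 0.21, limma adjusted p = 0.680) and Smarcb1 at 0.21 (standard error 0.22, limma adjusted p = 0.738). The ratio of Smarca4 to Smarca2 kept its separation: -2.06 and -2.09 in +/+ against -1.06 and -1.35 in Chd5-/- NSCs, a difference of 0.87. The Smarcc1 to Smarcc2 difference went from -0.52 to -0.10, with overlapping genotypes. Removing the trend also removes any change of expression that goes with GC content, so neither version is a measure of the amount of RNA per cell. With median-of-ratios scaling, which brings the median of all rows to 0.0052, the median of the 10 genes was 0.38. In that fit 1 gene was higher and 0 lower at an unadjusted p-value under 0.05. Of all rows, 11.99% were higher by this measure and 22.4% passed in either direction. Both Chd5-/- samples then lay above both +/+ samples for 3 of the 10 genes and below them for 2, Smarca2 and Smarcc1. With quantile normalization, or rescaling without the 20 most abundant rows, they lay above for 4 and below for 0. The shares of all rows without overlap were not counted for these 3 scalings, so these counts cannot be read as particular to the 10 genes.

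**Figure D4:**
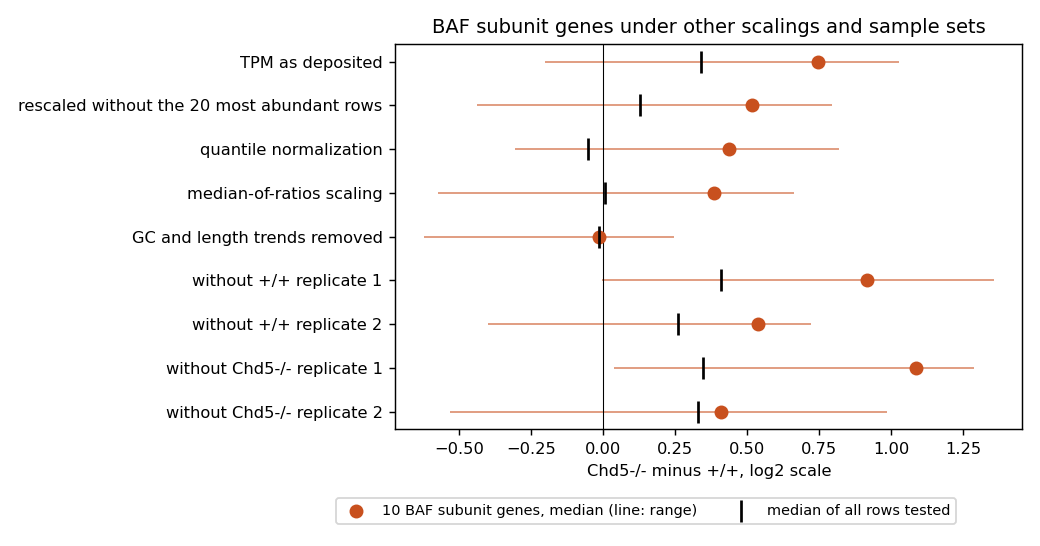
Log2 fold change (Chd5-/- minus +/+) of the 10 BAF subunit genes (orange point: median, line: range) and of all rows tested (black tick: median) under other scalings and with each sample left out. The median of the 10 genes lies above that of all rows in every row of the plot but the one with GC and length trends removed, where the values are -0.016 and -0.015.

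The other BAF subunit genes were taken as a list of 21, of which 18 had a mean of at least 1 TPM. Their median log2 fold change was 0.64, and 0.062 with GC and length trends removed. For 11 of the 18 the genotypes did not overlap, with Chd5-/- NSCs higher (46.3% of all rows), and 5 were higher and 0 lower at an unadjusted p-value under 0.05 (21.9% and 2.27% of all rows). None passed the adjusted threshold. The 5 were Dpf2, Dpf1, Brd9, Bcl7c and Actb. Dpf2, a PHD-finger subunit of progenitor complexes, was at 25.66 and 18.06 TPM in +/+ and at 38.14 and 70.78 TPM in Chd5-/- NSCs, with a log2 fold change of 1.23 (standard error 0.38, limma adjusted p = 0.154). With GC and length trends removed it was 0.78, and its genotypes did not overlap. Brd9, the bromodomain subunit of the non-canonical form, was at 25.25 and 18.50 TPM in +/+ and at 40.14 and 38.72 TPM in Chd5-/- NSCs, with a log2 fold change of 0.84 (standard error 0.26, limma adjusted p = 0.154), or 0.46 with the trends removed. Bcl7c, an accessory subunit, and Actb, the actin of the complex and of the cytoskeleton, had log2 fold changes of 0.87 and 0.81. With the trends removed these were 0.15 and 0.35. Of the 18 genes, 5 were then higher and 3 lower without overlap, beside 21.3% and 24.7% of all rows.

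The forms of the complex that use other targeting subunits were compared after their values had been seen. Of 4 genes listed for PBAF, of which Phf10 is also listed for the progenitor form, Arid2 was at 27.91 and 24.36 TPM in +/+ and at 33.04 and 36.17 TPM in Chd5-/- NSCs. The others showed little difference: the log2 fold changes were 0.39 for Arid2, -0.040 for the bromodomain gene Pbrm1, -0.011 for Brd7 and 0.056 for Phf10. The 3 genes of the non-canonical form were each higher in both Chd5-/- samples, as were 46.3% of all rows, with 0.84 for Brd9, 0.88 for Gltscr1 and 0.63 for Gltscr1l. Gltscr1 was near the floor, at 0.67 and 0.38 TPM in +/+ and at 1.25 and 2.49 TPM in Chd5-/- NSCs. With 0.1 in place of 1 added to the TPM, its log2 fold change was 1.62, and with 5 it was 0.31. The PBAF transcripts had a GC content of 41.8% to 48.4% and those of the non-canonical form one of 50.1% to 61.2%. With GC and length trends removed, the ranges of log2 fold change were -0.21 to 0.24 and -0.062 to 0.46, and so they overlapped.

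The subunits exchanged between progenitors and neurons differed in their values. Among the neuronal subunits, Actl6b (BAF53b) was listed at 0 TPM in both +/+ samples, with 0.14 and 0.07 TPM in Chd5-/- NSCs, far below its progenitor counterpart Actl6a in every sample. Dpf1 (BAF45b) was at 2.58 and 2.16 TPM in +/+ and at 8.22 and 5.36 TPM in Chd5-/- NSCs, with a log2 fold change of 1.19 (standard error 0.34, limma adjusted p = 0.144), and at 0.21 with the trends removed. Dpf3 (BAF45c) was at 12.16 and 13.45 TPM against 20.44 and 12.09 TPM and overlapped between genotypes. Ss18l1 (CREST) was at 10.67 and 9.91 TPM against 10.23 and 10.08 TPM, with a log2 fold change of -0.017. Of the progenitor subunits, Ss18 was at 61.80 and 56.75 TPM against 61.49 and 65.79 TPM. Phf10 (BAF45a) was at 95.51 and 85.19 TPM against 131.85 and 66.70 TPM, with the highest and the lowest value both in Chd5-/- samples. Ss18 had a log2 fold change of 0.10.

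Ratios of alternative subunits within a sample were compared for 9 pairs, each with an exact permutation test whose smallest p-value is 0.33, so that no adjustment over pairs can bring a value below it. Genotypes did not overlap for 4 of them: Smarca4 to Smarca2 (difference 1.16), Smarcc1 to Smarcc2 (-0.52), Arid1a to Arid1b (0.37) and Ss18 to Ss18l1 (0.12). With GC and length trends removed the difference was 0.17 for Arid1a to Arid1b and 0.45 for Ss18 to Ss18l1, without overlap for either. Arid1a made up 81.4% and 79.6% of the summed TPM of the ARID1 pair in +/+ and 84.1% and 83.5% in Chd5-/- NSCs. Arid1b itself was at 4.96 and 4.10 TPM in +/+ and at 4.63 and 8.12 TPM in Chd5-/- NSCs. For Smarcd1 to Smarcd3, Smarcd1 to Smarcd2, Actl6a to Actl6b, Dpf2 to Dpf1 and Dpf2 to Dpf3 the genotypes overlapped. The ratio of Dpf2 to Dpf3 was 1.02 and 0.40 in +/+ and 0.87 and 2.46 in Chd5-/- NSCs, a shift in replicate 2 alone.

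**Figure D5:**
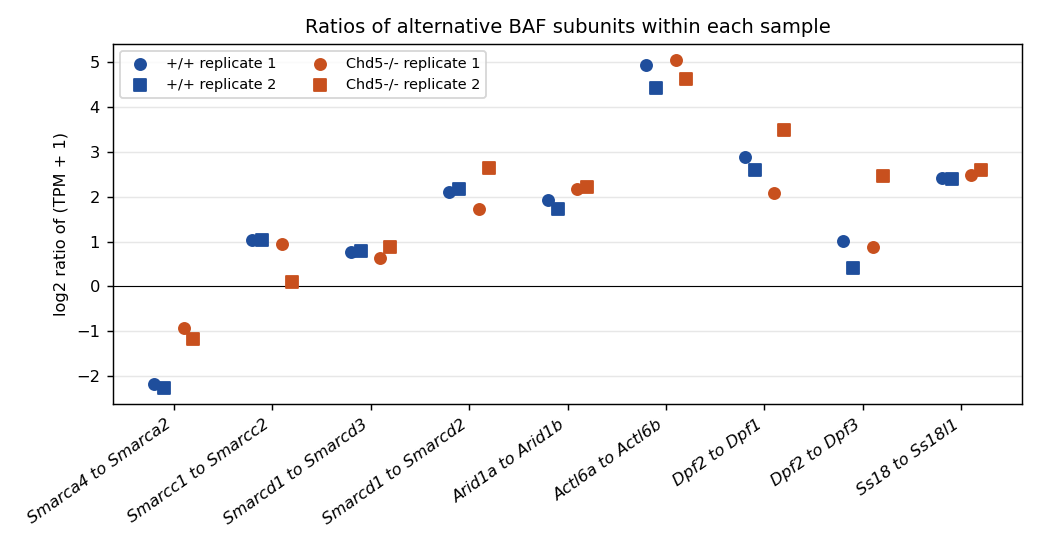
Log2 ratio of (TPM + 1) of alternative BAF subunits within each sample, blue for +/+ and orange for Chd5-/-, circles for replicate 1 and squares for replicate 2. The largest difference is that of Smarca4 to Smarca2, at -2.18 and -2.26 in +/+ and -0.93 and -1.18 in Chd5-/- NSCs.

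Other families of chromatin regulators were counted in the same way. Genotypes without overlap and higher levels in Chd5-/- NSCs were found for 8 of the 10 BAF genes, for 7 of 11 NuRD genes other than CHD, for 6 of 11 genes of PRC2 and the H3K27 demethylases, and for 3 of 9 rows of the CHD family without Chd5, beside 46.3% of all rows. Lower levels without overlap were found for 0, 2, 1 and 0 of them, beside 13.0% of all rows. The medians of the log2 fold change were 0.75, 0.42, 0.19 and 0.43, beside 0.34 for all rows, and the median GC contents were 54.7%, 52.4%, 47.8% and 49.4%. After removal of the GC and length trends these medians became -0.016, -0.054, 0.15 and 0.072. No gene of these 3 other lists passed the adjusted threshold, and at an unadjusted p-value under 0.05 from limma 4 of 11, 4 of 11 and 2 of 9 were higher and 0 lower, beside 21.9% and 2.27% of all rows. The differences between these lists were not tested.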

How the data were processed

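The authors deposited TPM values for 2 +/+ and 2 Chd5-/- samples in 1 table with 2 decimals. The submitters' processing notes name Bowtie2 2.2.3, RSEM 1.2.20 and mm10, the assembly of the GENCODE M21 and RefSeq references used here. The counting annotation and the strand setting are not given in the sources used here. Depth cannot be read from TPM, so precision rests on 2 samples per genotype, and p-values measure the spread between these cultures.

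From the TPM, 12576 rows whose mean reached 1 TPM were put on the log2(TPM + 1) scale, and a two-sided test was made by limma 3.58.1 (R 4.3.3; linear model, eBayes with trend), with Benjamini-Hochberg adjustment over all rows. The 20 most abundant rows held 32.4% and 35.6% of the TPM in +/+ and 21.6% and 22.8% in Chd5-/- samples. GC and length trends were fitted by loess (span 0.5) to each sample's deviation from the row mean, for the 96.2% of rows with a GC value. The code was tested on simulated data. Named were the 10 genes, the genes of the 9 ratios and other subunit genes with an unadjusted p-value under 0.05; PBAF and non-canonical genes were named after their values were seen. Members and lists were chosen with earlier results of these data known. Python 3.11.15, pandas 2.3.3, numpy 2.4.6, scipy 1.17.1 and matplotlib 3.10.9 were used.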

Additional observations from a re-analysis of the deposited data

How the results depend on the processing

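The median log2 fold change of the 10 genes was 0.75. It was 0.38 with median-of-ratios scaling, 0.41 to 1.09 with 1 sample left out, and turned to -0.016 with GC and length trends removed, alone or with a replicate block. The 3 genes higher at an unadjusted p-value under 0.05 became 1 with median-of-ratios scaling, 1 with quantile normalization, 0 with GC and length trends removed, 0 with these and the block, and 0 to 7 with 1 sample left out: 0 without +/+ replicate 2, 1 without Chd5-/- replicate 2 and 7 without Chd5-/- replicate 1. The 7 rows past the adjusted limma threshold became 4 with a pseudocount of 0.1, 0 without a minimum TPM (3473 at an unadjusted p-value under 0.05), 1 with quantile normalization, 3 with trends removed, 0 with the replicate block (2289 unadjusted), 0 with block and trends removed (854 unadjusted), and 0 to 1247 with 1 sample left out: 1247 without Chd5-/- replicate 1, 1086 without Chd5-/- replicate 2, and 0 without either +/+ sample (1600 and 804 unadjusted, without replicate 1 and 2).

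The share of all rows higher at an unadjusted p-value under 0.05 fell as well, from 21.9% as deposited. It was 11.99% with median-of-ratios scaling and 8.77% with quantile normalization. With GC and length trends removed it was 4.95%, and 3.5% with these and the block. The lower counts under these settings can thus not be read as particular to the 10 genes. The block alone left 2 of the 3 genes, where 16.8% of all rows were higher at an unadjusted p-value under 0.05 in that fit. Replicate numbers mark no shared litter or day in the labels, and deviations of same-numbered samples correlated at -0.15. With the numbers crossed, an alternative chosen after seeing the data, 6 of the 10 genes were higher at an unadjusted p-value under 0.05 (22.3% of all rows in that fit) and 5 rows passed the adjusted threshold.

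Single values that turned in sign, and the range where a left-out sample did this, were as follows. With GC and length trends removed, with or without the block, the log2 fold change was -0.011 for Actl6a, -0.044 for Arid1a, -0.21 for Arid1b, -0.27 for Bcl7b, -0.31 for Dpf3, -0.062 for Gltscr1, -0.21 for Phf10, -0.020 for Smarcc1, -0.083 for Smarcd1, -0.13 for Smarcd2 and -0.19 for Smarcd3, and the Smarcd1 to Smarcd3 difference was 0.11. With median-of-ratios scaling it was -0.065 for Actl6a, -0.068 for Dpf3, -0.31 for Phf10, -0.14 for Smarcc1 and -0.27 for Ss18. With quantile normalization it was -0.012 for Actl6a, -0.28 for Arid1b, -0.18 for Dpf3, -0.057 for Phf10 and -0.043 for Ss18. Rescaled without the 20 most abundant rows it was -0.18 for Phf10, -0.0029 for Smarcc1 and -0.13 for Ss18. With a pseudocount of 0.1 the difference in log2 ratio was -0.71 for Actl6a to Actl6b, -0.19 for Dpf2 to Dpf1 and -0.073 for Smarcd1 to Smarcd2. Without +/+ replicate 1 the log2 fold change was 0.094 for Brd7 and 0.032 for Ss18l1. Without +/+ replicate 2 it was 0.033 for Pbrm1, -0.12 for Brd7 and -0.025 for Phf10, and ratio differences were -0.11 for Actl6a to Actl6b and -0.11 for Dpf2 to Dpf1. Without Chd5-/- replicate 1 it was -0.075 for Dpf3, -0.43 for Phf10 and 0.13 for Smarca2, and ratio differences were 0.50 for Smarcd1 to Smarcd2, -0.061 for Actl6a to Actl6b and 0.098 for Smarcd1 to Smarcd3. Without Chd5-/- replicate 2 it was 0.085 for Brd7, 0.54 for Phf10, 0.64 for Dpf3 and -0.53 for Smarca2, and ratio differences were -0.66 for Dpf2 to Dpf1 and -0.40 for Smarcd1 to Smarcd2. Apart from the samples left out and the rows removed, the cause was not tested.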
